A study of Caenorhabditis elegans with 8 samples.

Results

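The 6 genes dpy-2, dpy-3, dpy-7, dpy-8, dpy-9 and dpy-10 encode the cuticle collagens of the annular furrows, and their rows were chosen by gene name from the 45461 rows of the count table. The worms were Caenorhabditis elegans of the N2 background at the L2 larval stage, grown at 20 °C on live E. coli OP50. Both groups carried the transgene jrIs2[Prpl-17::Grx1-roGFP2], in which the promoter of a ribosomal protein gene drives a fluorescent sensor of the glutathione redox state. Eggs were synchronized by hypochlorite, hatched without food and the arrested L1 larvae then fed. Worms labelled oxidized and worms labelled reduced gave 4 libraries each, from biological replicates 1, 2, 3 and 5, and each library pooled about 10000 animals. The question here is how furrow collagen transcripts compare between age-matched larvae with an oxidized and a reduced sensor.

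The cuticle of the worm is a collagen exoskeleton that the epidermis secretes anew before each moult. Circumferential bands called annuli are separated by furrows, and the furrow bands contain collagens that depend on each other for assembly: loss of any of the 6 leaves a short, fat (Dpy) animal without regular furrows. Their transcripts are known to peak together in each moulting cycle, earlier than those of annulus collagens such as DPY-13. Loss of furrow collagens is also known to switch on osmotic, detoxification and antimicrobial genes in the epidermis.

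Library totals ran from 635990 to 1089259 counts, and a floor of 3 counts equalled 2.75 to 4.72 CPM (counts scaled to the library total); such floors cover counting error only. The labels disagree on replicate 5, where the source name swaps the redox states that the characteristic, description and title give; the characteristic decided the group here. Titles of replicates 3 and 5 also read R4 in the reduced and R5 in the oxidized library, a difference that cannot be told apart from redox state. Some rows measured little of the gene they name: the 12 mitochondrial coding genes had 190 counts, 0.00297% of all. In 171 of 187 cases where 1 row lay almost wholly inside exons annotated on the other strand, the nested row had more counts per base. Since the strand setting of the counting is not recorded, it is not known whether the rows of the furrow collagens hold reads of their own strand. The same holds for every other gene named below, and the text therefore speaks of rows. A row with few or no counts does not by itself show low expression of its gene.

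The following positions are those of the Ensembl annotation of WBcel235, which may differ from the authors' build. The dpy-2 gene (row T14B4.6) lies on chromosome II at 6714292 to 6715971 on the forward strand, with 5 exons. The dpy-10 gene (T14B4.7) lies on chromosome II at 6710149 to 6712227 on the reverse strand, with 5 exons, so that the pair stands head to head with 2064 bases between them. The other 4 lie on the reverse strand: dpy-3 (EGAP7.1) on chromosome X at 2144605 to 2145647 with 2 exons, dpy-7 (F46C8.6) on X at 7536467 to 7537792 with 2, dpy-8 (C31H2.2) on X at 5148804 to 5150476 with 4, and dpy-9 (T21D12.2) on chromosome IV at 257403 to 259204 with 4. No other annotated gene shares exon bases with dpy-2, dpy-3, dpy-7 or dpy-9. The dpy-8 exons share 109 bases with C31H2.14, a coding gene on the other strand, and the dpy-10 exons share 780 bases with T14B4.19, a coding gene on the same strand. Neither of these overlapping genes matched a row of the table.

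The furrow collagen rows were sparse, and 5 of the 6 held more counts in oxidized than in reduced libraries, while the group means of dpy-8 were 19.3 CPM in reduced and 18.5 CPM in oxidized ones. Together they held 891 counts in the 8 libraries, 0.0139% of the total, and between 97 (dpy-2) and 196 (dpy-3) each. The ratio of oxidized to reduced mean CPM was 9.49 for dpy-9, 9.44 for dpy-2, 7.92 for dpy-3, 5.16 for dpy-7, 4.31 for dpy-10 and 0.959 for dpy-8. Of 2315 rows tested in the whole table, 5 passed as higher with oxidation (0.216%) and 0 as lower (0%) by the edgeR quasi-likelihood test at an adjusted p under 0.05. No furrow row was among them. At an unadjusted p under 0.05, dpy-3, dpy-7 and dpy-10 were higher, with 69 of all rows (2.98%), and no furrow row was lower, with 53 of all rows (2.29%). Lower rows also numbered 0 by DESeq2 and by limma voom. With the replicate number as a block, 11 rows were higher (0.475%), dpy-3 among them, and 4 were lower (0.173%), none of them a furrow row.

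**Figure D1:**
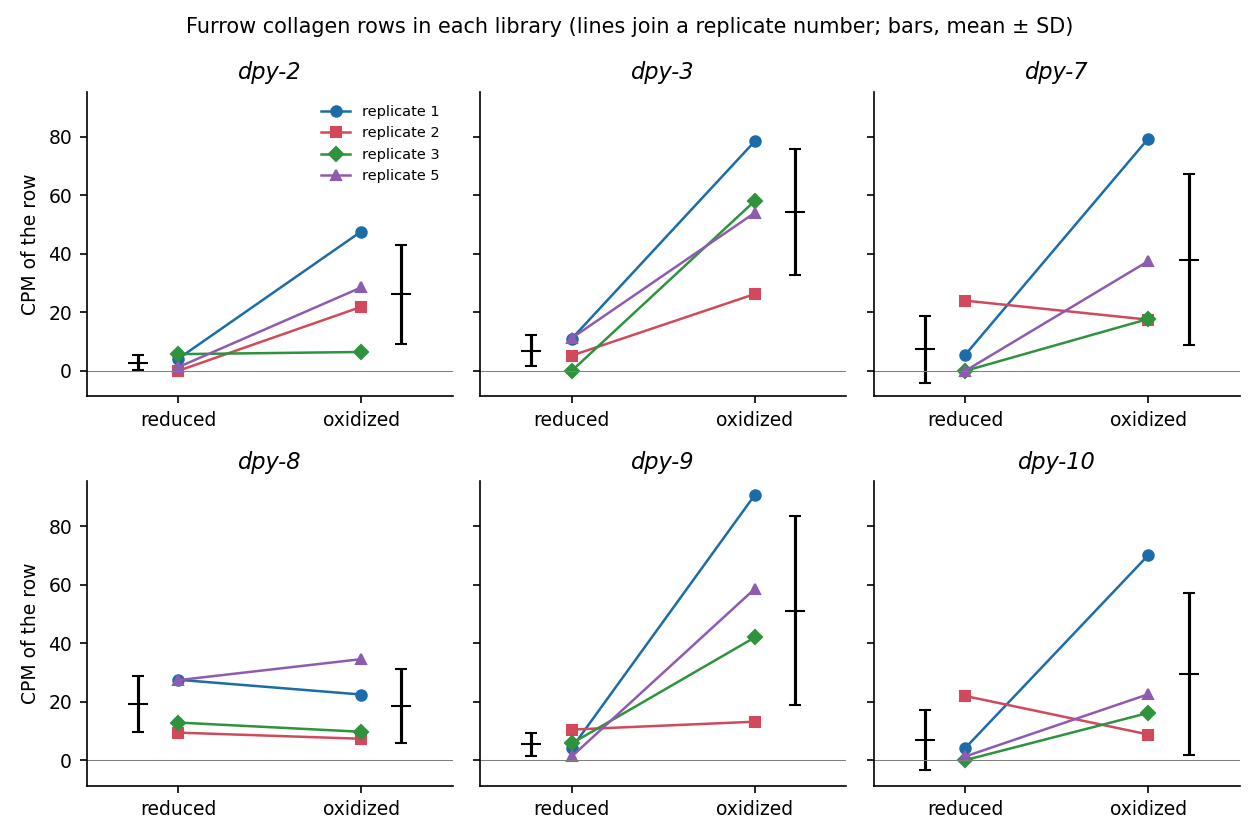
CPM of each furrow collagen row (vertical axis, the same in all panels) in the reduced and oxidized library of each replicate number; lines join libraries of 1 number, and black bars give mean ± SD (n = 4). In dpy-3 all 4 lines go up, from 0 to 11.2 CPM in reduced to 26.2 to 78.4 in oxidized libraries, whereas the dpy-8 lines are nearly flat.

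The filter on low counts asked for at least 12.7 CPM of the library total in 4 libraries, and 4 of the 6 furrow rows passed it. The dpy-9 row fell just short, with 3 libraries past the limit and 9 counts in the next, and dpy-2 also had 3 past it, with 6.29 CPM of the library total in the next; among those tested, dpy-10 came nearest to the limit, with 15.7 in its lowest library past it. The dpy-3 row passed through its 4 oxidized libraries alone, and dpy-7 and dpy-10 passed mostly through oxidized ones. A count of changed rows among the 4 tested therefore says little about the group. Adjusted p-values of dpy-3, dpy-7 and dpy-10 from filtered fits share this limit. The dpy-2 and dpy-9 rows are given from a fit with no filter.

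The dpy-3 row, one of the X-linked furrow collagens, had the clearest separation of the groups. It held 8, 5, 0 and 9 counts in reduced replicates 1, 2, 3 and 5, and 84, 18, 36 and 36 in the oxidized ones. The highest reduced library, at 11.2 CPM, lay below the lowest oxidized library, at 26.2 CPM. The reduced mean was 6.84 ± 5.34 CPM and the oxidized mean 54.2 ± 21.5 (SD, n = 4). On the log2 scale the fitted difference was 2.98 with SE 0.71, and its edgeR adjusted p was 0.0831. With the replicate block it rose by 2.91 on the log2 scale (SE 0.75, edgeR adjusted p = 0.0434). That call was lost when the block was combined with legacy = TRUE (edgeR adjusted p = 0.126), with scaling by library totals (0.0756) or with no filter (0.0823), and when any 1 pair was left out (0.0989 to 0.608). DESeq2 also called it (log2 fold change 2.97, adjusted p = 0.0193; 0.389% of rows were called higher), whereas limma voom did not (adjusted p = 0.893). The exact two-sided permutation test gave p = 0.0286, the smallest that 70 relabellings allow, and 0.945 after adjustment over all rows. That smallest p could pass the adjustment only if most of the tested rows reached it, so this test could not call dpy-3 by itself. The dpy-3 row entered all filtered fits through its 4 oxidized libraries alone, so their adjusted p-values are not free of the filter. With no filter and no block, its edgeR adjusted p was 0.062 and its DESeq2 adjusted p 0.0497.

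The dpy-9 row gave a similar picture at its edge of detection. It held 3, 10, 4 and 1 counts in the reduced replicates 1, 2, 3 and 5, and 97, 9, 26 and 39 in the oxidized ones. Raw counts of the groups overlapped in replicate 2, and only after scaling did the lowest oxidized library (13.1 CPM) stand above the highest reduced one (10.43 CPM). Means were 5.37 ± 3.85 and 51.0 ± 32.4 CPM (SD, n = 4). In the fit with no filter, over 13216 rows, it rose by 3.26 on the log2 scale (SE 0.79, edgeR adjusted p = 0.0452; 0.0681% of rows were called higher). With the replicate block in that fit the adjusted p was 0.0915 (edgeR; log2 fold change 3.09, SE 0.80). With 1 library left out it passed the filter in 7 of 8 fits, with log2 differences of 2.91 to 3.85, and it passed the test only without oxidized replicate 2 (edgeR adjusted p = 0.0204). DESeq2 with no filter called both dpy-9 (adjusted p = 0.0485) and dpy-3 (adjusted p = 0.0497), as it did 0.0832% of all rows.

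For dpy-2, whose mutants are dumpy and roll, 51, 15, 4 and 19 counts were found in oxidized replicates 1, 2, 3 and 5, and 3, 0, 4 and 1 in the reduced ones. Its groups touched: replicate 3 had 4 counts in both libraries, which scaling set at 5.704 CPM in the reduced and 6.45 CPM in the oxidized library. No reduced library had more than 4 counts. Means were 2.77 ± 2.61 and 26.1 ± 17.1 CPM (SD, n = 4), and the log2 difference fitted with no filter was 3.44 with SE 1.01 (edgeR adjusted p = 0.334).

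The rows of dpy-7, whose protein is the usual antibody marker of the furrows, and of dpy-10, known for dominant alleles that make worms roll, were higher in the oxidized library of replicates 1, 3 and 5 and lower in that of replicate 2. The dpy-7 row held 4, 23, 0 and 0 counts in reduced replicates 1, 2, 3 and 5, and 85, 12, 11 and 25 in the oxidized ones. For dpy-10 the counts were 3, 21, 0 and 1 in the same order of reduced replicates, and 75, 6, 10 and 15 in oxidized. Both had their highest reduced library in replicate 2, above its oxidized partner, and their highest oxidized library in replicate 1, so the groups overlapped.

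For dpy-7 the means were 7.37 ± 11.4 and 38.0 ± 29.1 CPM (SD, n = 4), and the fitted log2 difference was 2.28 with SE 0.82 (edgeR adjusted p = 0.679). Those of dpy-10 were 6.82 ± 10.2 and 29.4 ± 27.7 CPM, with 2.06 (SE 0.84, edgeR adjusted p = 0.773). Neither passed in any of the alternatives run. Without reduced replicate 2 the log2 fold changes were 4.41 for dpy-7 and 4.07 for dpy-10, and without oxidized replicate 1 they were 1.53 and 1.01.

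In contrast, the dpy-8 row, also on chromosome X, held 20, 9, 9 and 22 counts in reduced replicates 1, 2, 3 and 5, and 24, 5, 6 and 23 in the oxidized ones. The groups covered the same range, 9.39 to 27.5 CPM in reduced and 7.29 to 34.5 CPM in oxidized worms. Within a replicate number the difference stayed between −0.33 and 0.31 on the log2 scale. Means were 19.3 ± 9.50 and 18.5 ± 12.6 CPM (SD, n = 4), and the log2 fold change was −0.0046, with a 95% interval from −1.44 to 1.43 (edgeR adjusted p = 0.999). Differences within that interval were not excluded for dpy-8. It is not a limit of detection, since the larger fitted difference of dpy-7, 2.28, was not called either. This row is also the one that shares exon bases with a gene on the other strand, C31H2.14; the part of that overlap in its values was not tested.

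**Figure D2:**
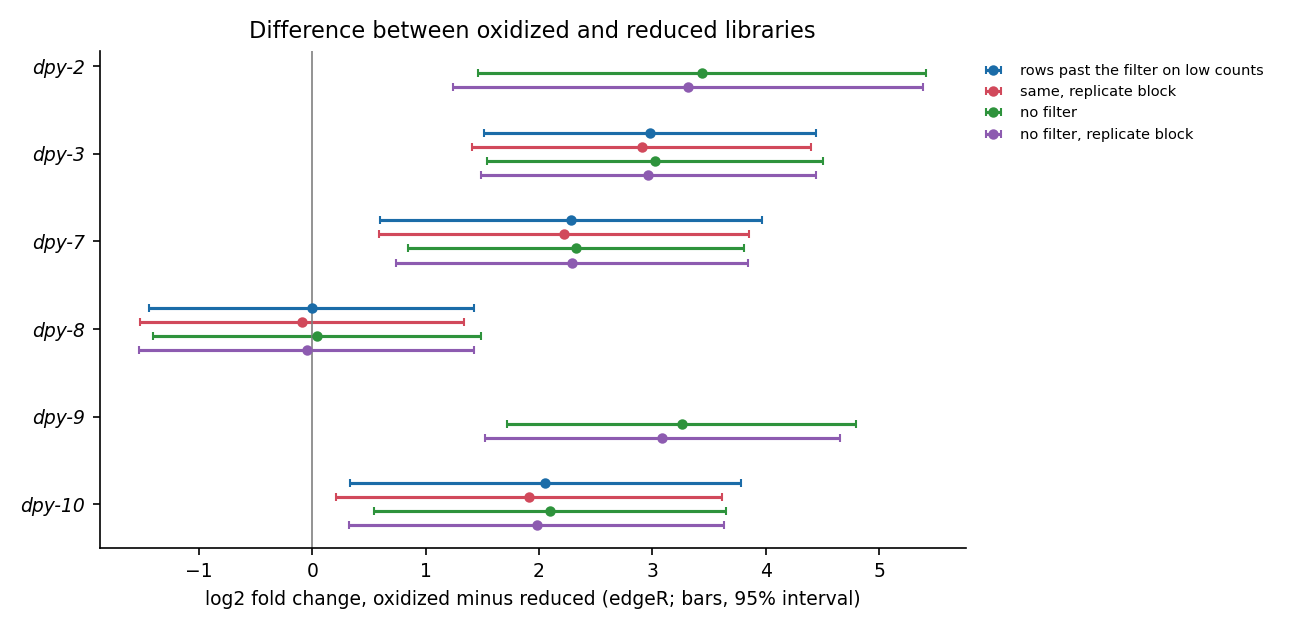
Log2 fold change of each furrow collagen row, oxidized minus reduced (horizontal axis), with its 95% interval from edgeR, with and without the filter on low counts and the replicate block. The intervals of dpy-8 are centred near 0, from −1.44 to 1.43 with the filter and no block, and those of the other 5 rows lie above 0; before adjustment over all rows these intervals are not a call.

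Pair by pair, dpy-2, dpy-3 and dpy-9 were higher in CPM in the oxidized library of all 4 replicate numbers. This rested on scaling for dpy-2 in replicate 3 (4 counts in both) and for dpy-9 in replicate 2 (10 reduced, 9 oxidized). Of the 2315 tested rows, 7.21% were higher in all 4 pairs, dpy-3 among them, while dpy-2 and dpy-9 had not passed the filter. The dpy-2, dpy-3 and dpy-9 rows also had all 4 oxidized libraries above all 4 reduced ones in CPM. This held for 2.19% of the 2145 rows with at least 97 counts, whether or not they passed the filter. Of those, 1.07% lay wholly below, and no furrow row did. The dpy-7 and dpy-10 rows were higher in 3 of 4 pairs, and dpy-8 in 1 of 4. Replicate 5 was the pair in which all 6 rows were higher in the library labelled oxidized, with log2 differences from 0.31 for dpy-8 to 4.00 for dpy-9. In replicate 2 only 3 of 6 were, from −1.11 for dpy-10 to 3.25 for dpy-2. With the labels of replicate 5 exchanged, as its source name has them, the log2 fold changes of dpy-3, dpy-7 and dpy-10 were 1.43, 0.89 and 1.08, and none passed.

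By date, the libraries of June28 (replicates 1 and 2) and those of July7 and August6 (replicates 3 and 5) gave the same direction for 5 of the 6 rows. The reduced libraries of dpy-7 were at 0 in both of the later dates, against 5.49 and 24.0 CPM in June28. Those of dpy-10 were at 0 and 1.24 CPM, against 4.12 and 21.9 CPM. The reduced ranges of dpy-2, dpy-3, dpy-8 and dpy-9 overlapped between the dates. For dpy-3 the log2 difference was 2.77 in June28 alone (SE 1.07) and 3.19 in the later dates alone (SE 1.05), each from 2 libraries per group, and neither passed. With the date as a covariate dpy-3 rose by 3.00 (SE 0.75, edgeR adjusted p = 0.0319; 0.432% of rows were called higher).

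Summed over the 6 rows, reduced libraries held 24.2 to 71.0 CPM and oxidized libraries 94.8 to 388 CPM, with means of 48.4 ± 19.9 and 217 ± 128 (SD, n = 4). Oxidized replicate 1 had the highest sum and reduced replicate 3 the lowest. Oxidized replicate 1 also had the most rows detected over the whole table, 7548 at 1089259 counts. Reduced replicate 3 had the fewest, 5058 at 746833 counts. The 0 counts of dpy-3, dpy-7 and dpy-10 in reduced replicate 3 therefore come from the library with the fewest rows detected. The part of this in the furrow values was not tested. The dpy-8 row, whose own means were 19.3 and 18.5 CPM, took 13.2% to 64.7% of the 6 rows' counts in reduced libraries and 5.77% to 14.6% in oxidized ones, so the ranges overlapped. The share of dpy-9 ran from 2.94% to 23.5% in reduced and from 13.8% to 27.96% in oxidized libraries, which overlapped as well. These are sparse counts, with 17 in all for reduced replicate 3, and in whole worms fewer epidermal cells and less RNA per cell cannot be told apart.

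**Figure D3:**
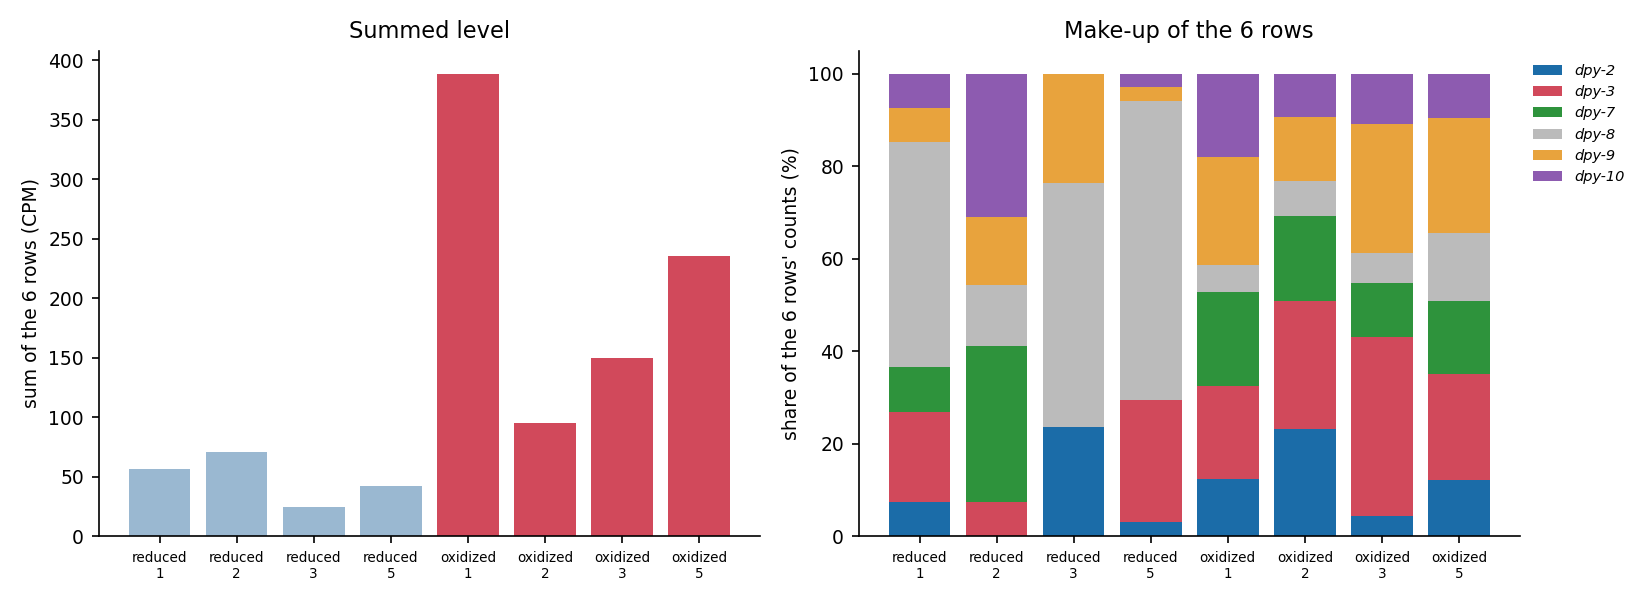
Left, sum of the 6 furrow collagen rows in CPM for each library; right, share of each row in their summed counts (%). Oxidized libraries reach 94.8 to 388 CPM against 24.2 to 71.0 in reduced ones, and dpy-8 (grey) takes the largest share in reduced replicates 1, 3 and 5.

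Per kb of exon, the order of levels differed between the groups. In reduced worms dpy-8 came first with 12.7 ± 6.28 CPM per kb, followed by dpy-3 (7.12 ± 5.55), dpy-7 (6.43 ± 9.92), dpy-9 (5.12 ± 3.67), dpy-10 (4.28 ± 6.41) and dpy-2 (2.09 ± 1.97). In oxidized worms dpy-3 came first with 56.4 ± 22.3 CPM per kb, then dpy-9 (48.7 ± 30.8), dpy-7 (33.2 ± 25.4), dpy-2 (19.7 ± 12.9), dpy-10 (18.4 ± 17.4) and dpy-8 (12.21 ± 8.32; SD, n = 4). No 2 neighbours in either order differed by more than the larger of their SDs.

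Whether the rows differed from each other in their response was tested on the log2 ratio of each of the 15 pairs of rows. The ratios of dpy-8 to dpy-2, dpy-3 and dpy-9 differed between the groups by 2.47, 2.91 and 2.77 on the log2 scale, each with an exact two-sided permutation p of 0.0286, the smallest possible. After adjustment over the 15 pairs these were 0.143, so none passed. A p of 0.0286 could pass that adjustment only if most of the 15 pairs reached it. The test could therefore not decide whether dpy-8 differed from these rows, and it was not among the planned ones. The ratios of dpy-8 to dpy-7 and to dpy-10 differed by 2.61 and 2.12 (exact permutation p = 0.114, adjusted p = 0.286). Among the other 10 pairs the differences ran from −0.44 for dpy-2 against dpy-3 to 0.79 for dpy-3 against dpy-10, with exact permutation p of at least 0.114.

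Over the 8 libraries, the log2 CPM of dpy-7 and dpy-10 followed each other most closely, with Pearson's r of 0.976, and 0.962 after the group means were taken out. The head-to-head genes dpy-2 and dpy-10 had r = 0.531 over all libraries and −0.0427 within groups. The dpy-9 row followed dpy-7 (r = 0.876) and dpy-10 (r = 0.862). All 10 pairs without dpy-8 had r of at least 0.531, while the 5 pairs with dpy-8 ran from −0.0397 to 0.206. These values include the difference between the groups. With the group means taken out, the pairs without dpy-8 ran from −0.15 to 0.962 and those with it from 0.0523 to 0.595, so the contrast was not seen within groups. These are descriptions over libraries that share depth and group, and the counts are low.

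**Figure D4:**
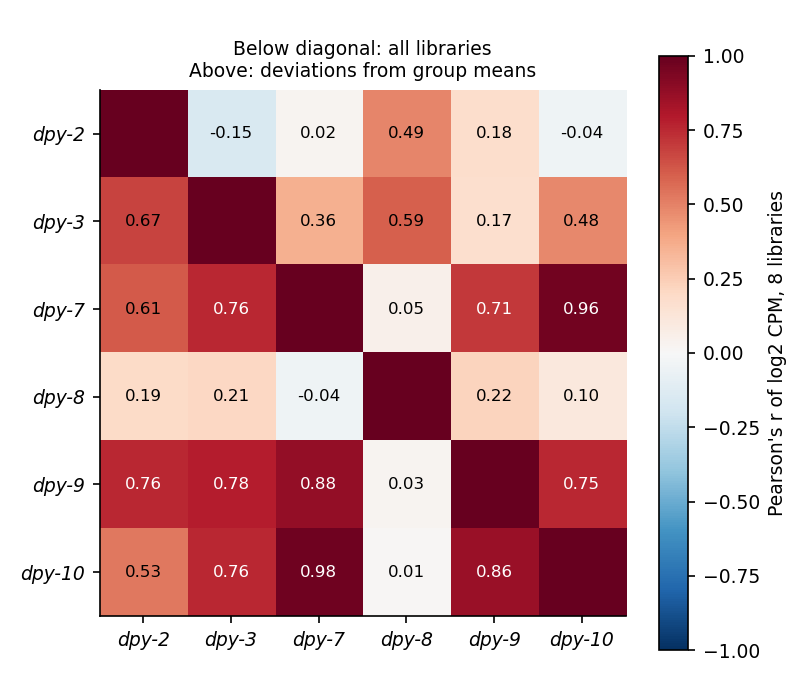
Pearson's r of log2 CPM between furrow collagen rows over the 8 libraries (below the diagonal) and of the deviations from the group means (above it); colour gives r from −1 to 1. The dpy-7 and dpy-10 pair stands at 0.98 and 0.96, and the row and column of dpy-8 are pale below the diagonal but reach 0.59 (with dpy-3) above it.

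The 8 tested rows whose log2 CPM was most like the mean of the 4 tested furrow rows had Pearson's r from 0.874 to 0.929 over the 8 libraries. The r includes the difference between the groups, so the choice favoured rows with log2 fold changes above 0. These 8 were picked as the highest of 2311 rows (median r 0.0214, 95th percentile 0.648), so they lay above both by choice. They were the rows of F13C5.2, F49H12.5 (annotated as a thioredoxin domain gene), cpr-4 (a cathepsin B-like protease), F53F8.3, H42K12.3, qua-1 (a hedgehog-related gene), atx-2 (the ataxin-2 homologue) and Y71F9AL.9. Their log2 fold changes ran from 0.85 for Y71F9AL.9 to 2.84 for H42K12.3. None passed without the block, and H42K12.3 passed with it (edgeR adjusted p = 0.00984).

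H42K12.3 held 27, 13, 3 and 3 counts in reduced replicates 1, 2, 3 and 5, and 151, 29, 60 and 89 in the oxidized ones, so that the highest reduced and the lowest oxidized library were 2 counts apart. Singly, the row most like dpy-3 was F41B5.11 (r = 0.931), that most like dpy-7 was F18A11.3 (r = 0.937), and that most like dpy-10 was nlp-4, a neuropeptide-like gene (r = 0.936). The dpy-8 row was most like taf-4, which encodes a subunit of the general transcription factor TFIID (r = 0.891).

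Other collagens that shape the body covered a wide range of levels in the table. Per kb of exon, the 9 tested ones lay between 38.6 CPM (lon-3) and 10264 CPM (dpy-4), averaged over the 8 libraries, and the 6 furrow rows between 10.9 (dpy-2) and 31.8 (dpy-3). The annulus collagen dpy-13 stood at 10112 CPM per kb and dpy-5 at 3691. In oxidized libraries alone dpy-3, at 56.4 CPM per kb, stood above lon-3, at 51.6. A further 5 of these collagens had at most 34 counts and lay below every furrow row, from 2.33 CPM per kb for bli-2 to 0 for dpy-17, and ram-4 matched no row.

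Of the 9 tested, 0 were called without the block; all had log2 fold changes above 0, with a median of 1.17, as did 45.8% of all tested rows, whose median was −0.05. With the block, where 0.475% of all tested rows were higher and 0.173% lower, 2 of these collagens rose and 0 fell. They were the rows of sqt-1 (log2 difference 1.497, SE 0.33, edgeR adjusted p = 0.00984) and sqt-3 (1.43, SE 0.33, edgeR adjusted p = 0.0176), collagens whose alleles change body shape. Without it, sqt-1 had 1.58 (edgeR adjusted p = 0.131), rol-6 1.39 (0.462), sqt-2 1.39 (0.679) and sqt-3 1.17 (0.767). How the counting divided reads shared by similar collagen genes is not known.

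**Figure D5:**
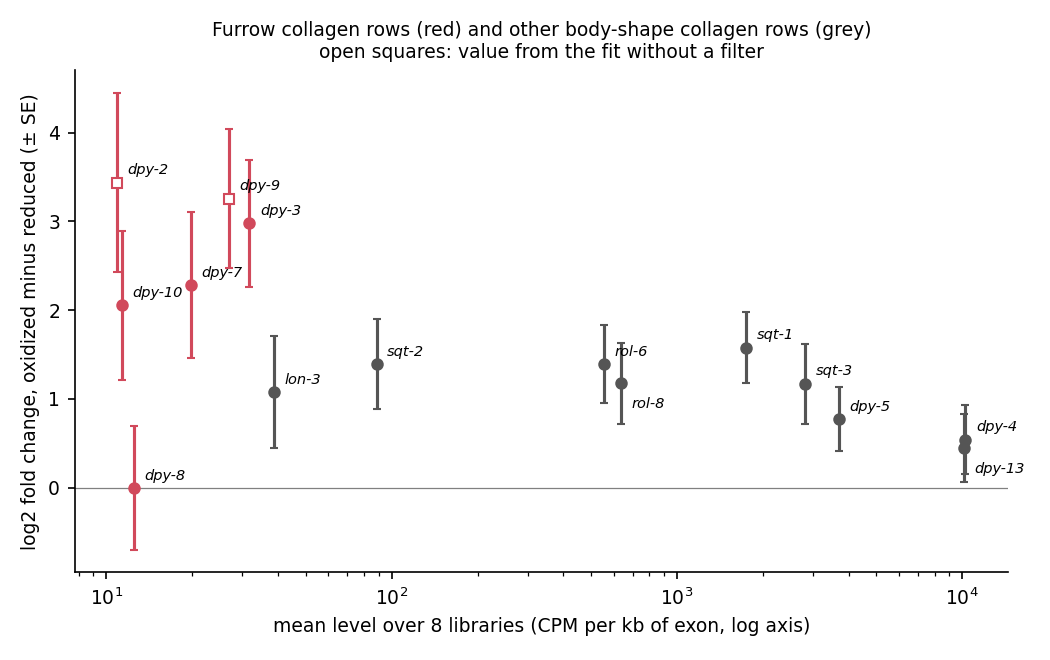
Log2 fold change, oxidized minus reduced (± SE, edgeR), against the mean level in CPM per kb of exon (log axis) for the furrow collagen rows (red) and 9 other body-shape collagen rows (grey); open squares come from the fit with no filter. The furrow rows lie at 10.9 to 31.8 CPM per kb, below every grey point.

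Enzymes that fold and process collagens gave no call. Of 17 such genes 6 were tested, 0 rose and 0 fell with or without the block, and their median log2 fold change was 0.37. The lowest p belonged to dpy-11, a thioredoxin-like protein of the epidermis (0.88, SE 0.77), pdi-3, a protein disulfide isomerase (0.54, SE 0.64), bli-4, the convertase that trims collagens (−0.66, SE 0.80), and sec-23, of the coat that carries cargo out of the ER (0.35, SE 0.59), all with an edgeR adjusted p of 0.999. Among those not tested, and chosen after its values were seen, the row of bli-3, the dual oxidase that crosslinks cuticle collagens, held 42 counts, with a reduced mean of 12.6 ± 4.91 CPM and an oxidized mean of 1.17 ± 1.53 CPM (SD, n = 4). Others in the list that were not tested had higher oxidized means, such as pdi-1 (2.92 ± 2.197 and 9.30 ± 6.72 CPM) and tmem-131 (4.93 ± 5.84 and 11.3 ± 5.90 CPM).

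Rows of regulators of moulting and epidermal fate mostly held too few counts to test: 3 of 16 were tested and 0 were called. The lin-42 row, named for a period homologue that times moults, had 0.80 (SE 0.61), mlt-8 had 0.70 (SE 0.73) and mlt-11 had 0.50 (SE 0.81), each with an edgeR adjusted p of 0.999. The nuclear receptor row nhr-23 and the blmp-1 row were at 0 counts in all 8 libraries.

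Of 21 genes known to respond to furrow loss, or to act in that response, only the ptr-23 row was tested, and its log2 difference was −1.46 with SE 0.81 (edgeR adjusted p = 0.999). The other 20 held at most 57 counts, among them some usual reporters of these responses, the antimicrobial peptide gene nlp-29 with 43, the glycerol synthesis gene gpdh-1 with 7 and the detoxification gene gst-4 with 0. The summed level of the 21 was 77.0 to 189.9 CPM in reduced and 42.0 to 97.1 in oxidized libraries.

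Summed markers of cell types overlapped between the groups, but many of these rows were too low to test. Non-collagen epidermal markers summed to 80.7 to 264 CPM in reduced and 67.1 to 205 in oxidized libraries; 6 of 13 were tested, 3 above and 3 below 0, with lin-26, elt-1 and elt-3 at 15, 12 and 6 counts and che-14 at 0. Body wall muscle markers summed to 928 to 3105 CPM in reduced and 897 to 1845 in oxidized libraries. Of these, 10 of 12 tested had log2 fold changes below 0 (median −0.45) with none called. Among all 2315 tested rows 1254 were below 0. Intestinal markers overlapped as well, at 312 to 858 against 353 to 657 CPM, as did those of the pharynx (75.7 to 454.5 against 135 to 233), neurons (122 to 210.1 against 118 to 145) and germline (7.45 to 44.9 against 9.34 to 33.9). Tested markers numbered 6 of 11 for intestine (4 below 0), 3 of 8 for pharynx (2 below 0) and 3 of 10 for neurons (3 below 0). For germline 0 of 8 were tested. Overlap of such low sums does not show equal tissue make-up. The part of tissue make-up in the values of the furrow rows was not tested.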

How the data were processed

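Counts came from 8 sequencing libraries, 4 oxidized and 4 reduced. Per the labels' protocols, ribosomal RNA was removed from 100 ng of total RNA, which was made into stranded libraries with 15 PCR cycles, read on 1 lane as 50 nt pairs, although the molecule field says polyA RNA. The tools in the submitters' processing notes are TopHat2 (2.0.13), Bowtie2 (2.2.1), FastQC (0.11.3), Cuffdiff (2.1.1) and Cufflinks; build, annotation and counting strand are not recorded. The authors deposited raw, unnormalized counts for 45461 rows. The table has 2 columns that match no sample, and these were left out. Of all rows, 44380 matched 1 gene of the Ensembl WBcel235 annotation.

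The test was edgeR 4.0.16 in R 4.3.3 (filterByExpr; TMM; glmQLFit with robust = TRUE, legacy = FALSE; glmQLFTest) with no block. P-values were adjusted by Benjamini-Hochberg over every row tested, at a threshold of 0.05. An SE is the log2 fold change over the square root of F. CPM rests on TMM-scaled totals, and log2 CPM on a prior count of 2. DESeq2 1.42.0 and limma voom (limma 3.58.1) served as alternatives. Counts were simulated for the 2315 rows (200 changed per draw, 5 draws). The share that passed was 8.77% at 2-fold, 57.4% at 4-fold and 85.1% at 8-fold, and 0.359% for rows left unchanged. With the block the shares were 3.8%, 48.3%, 78.7% and 0.17%. The changed rows were drawn at any abundance, and 200 of them make the adjustment milder than few would. No replicate effect was simulated. These shares therefore do not give the power for the sparse furrow rows or the worth of the block.

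Libraries with 1 number share a title date, taken as pairing them, but replicates 1 and 2 have the same date. Correlations of their deviations from group means were 0.06 (replicate 1), −0.16 (2), 0.13 (3) and 0.30 (5).

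The members and gene lists were chosen with earlier results of these data known. Other rows named are the 8 most like the members, the 1 most like each tested member, and in each list the called rows and up to 4 with the smallest p; exceptions are stated. Alternatives left out libraries or pairs, added the date, kept 1 range of dates, changed the scaling, filter or test, or exchanged the labels of replicate 5. Combinations with the block, and DESeq2 with no filter, were added after seeing the data. Protein and promoter sequences were not used here.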

Additional observations from a re-analysis of the deposited data

How the results depend on the processing

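Without the block 5 of 2315 rows were higher and 0 lower, and no furrow row was called. With the replicate block 11 were higher and 4 lower, and 1 furrow row, dpy-3, passed (2.91 on the log2 scale). The date covariate gave 10 higher, 2 lower and 1 furrow row (dpy-3, 3.00), and DESeq2 gave 9 higher and 1 furrow row (dpy-3, 2.97). With no filter 9 were higher and 1 lower, and the 1 furrow row was dpy-9 (3.26). Rows higher numbered 3 by limma voom, 3 with legacy = TRUE, 0 in June28 alone, 1 in July7 and August6 alone and 0 with the labels of replicate 5 exchanged. Exact permutation also gave 0, but it could call rows only if most of those tested reached its smallest possible p. Leaving out 1 library gave 1 to 12 higher, 0 to 3 lower and 0 to 1 furrow rows, the 1 being dpy-9 without oxidized replicate 2. Leaving out 1 pair under the replicate block gave 2 to 18 higher, 0 to 4 lower and 0 to 1 furrow rows, the 1 being dpy-9 without replicate 2. In these block fits dpy-3 ran from 2.46 to 3.24 and passed in none. The dpy-9 calls with a library or pair left out came without its lowest oxidized library. Its entry into those fits rested on oxidized libraries alone. Of the settings added later, the block gave 9 higher and 3 lower with legacy = TRUE, 9 and 4 with library totals, 10 and 1 with no filter, and 0 higher with replicate 5 exchanged, and 0 furrow rows in all 4 (dpy-3 adjusted p from 0.0756 to 0.997); DESeq2 with no filter gave 11 higher, 1 lower and 2 furrow rows, dpy-9 and dpy-3 (2.97).

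The dpy-9 difference did not pass in June28 alone (2.82), in July7 and August6 alone (3.85), or with the block and no filter (3.09); where it passed the filter, it ran from 2.91 to 3.85 with 1 library left out and from 3.03 to 4.09 with 1 pair left out of the block fit. The dpy-8 difference changed sign in July7 and August6 alone (0.13), with upper-quartile scaling (0.0302), with library totals (0.0114) and with no filter (0.0415), and ran from −0.42 to 0.26 with 1 library left out. The log2 differences of dpy-3, dpy-7 and dpy-10 stayed above 0 in all alternatives run. The cause of these changes was not tested. At 97 to 196 counts per row over 8 libraries, depth limits every furrow row.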
